A study of Mus musculus with 6 samples.

Results

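Polycomb complex genes were examined in H3K4me3 ChIP-Seq peak lists from mouse striatal progenitor cells. The set held 10 genes, Ezh1, Ezh2, Eed, Suz12, Bmi1, Ring1, Rnf2, Cbx2, Cbx7 and Cbx8, of 21911 protein-coding genes in the annotation. A gene counted as marked if at least 1 peak reached to within 1 kb of one of its GENCODE vM21 transcript starts. This gave 86 peaks near the 10 genes, of 227418 peaks in all. H3K4me3, trimethylation of lysine 4 of histone H3, is a chromatin mark found at promoters.

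The cells were STHdh cells, conditionally immortalised striatal progenitors from C57BL/6 mice, kept for 24 h without serum. Q7SST was the STHdhQ7 line, with wild-type huntingtin, given vehicle. Q111SST was the STHdhQ111 line, with a knocked-in glutamine expansion in huntingtin, given vehicle. The other 4 lists came from STHdhQ111 cells given cyproheptadine, loxapine, diacylglycerol kinase inhibitor II (DKI) or meclizine, each at 10 uM. Each condition had 1 peak list and each genotype 1 cell line, so line and genotype cannot be told apart. No replicate spread could be computed and no test between conditions was made, so every difference below describes these lists.

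Polycomb proteins hold developmental genes in a silent state. Polycomb repressive complex 2 (PRC2) methylates histone H3 on lysine 27 through Ezh1 or Ezh2, with Eed and Suz12 as core subunits. Polycomb repressive complex 1 (PRC1) ubiquitinates histone H2A through Ring1 or Rnf2, partnered by proteins such as Bmi1, and the Cbx proteins read the PRC2 mark. In neural progenitors these complexes are known for restraining differentiation genes and the Cdkn2a locus.

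The lists held 30758 peaks (DKI) to 45564 peaks (loxapine), and the read depth behind each list is unknown. Each peak carried a whole-number score whose scale is not given, with a lowest value of 10. Strength is therefore given as a percentile, the rank of a gene's strongest peak near a start among all peaks of the same list. Marked protein-coding genes had a median strength percentile of 76.3 (DKI) to 83.0 (loxapine). As a check of the cell label, the neural progenitor markers Vim, Sox9, Dlx1, Dlx2 and Meis2 were marked in all 6 lists. Sox2 had no peak in Q7SST, Nes none with cyproheptadine, and Gsx2 had a peak only in Q7SST. Of 8 markers of striatal projection neurons, 6 were marked in Q7SST and 1 to 3 in the 5 STHdhQ111 lists, and Drd1 and Drd2 had no peak in any list. Of 3 fibroblast markers, Col1a1 and Dcn were marked in all 6 lists and Col1a2 in the 5 STHdhQ111 lists. Of 3 astrocyte markers, Gfap was marked in 5 lists (all but Q7SST, at percentiles of 32.6 to 54.7) and Aldh1l1 in 4 (4.6 to 57.3), and Aqp4 in none. Of 3 microglial markers Aif1 was marked in 2 lists, of 3 oligodendrocyte markers Mbp in 1, at percentiles of 6.1 or below, and both endothelial markers were unmarked.

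All 10 Polycomb genes were marked in each of the 6 lists. The share of protein-coding genes that were marked was 59.9% in Q7SST, 58.4% in Q111SST, 55.4% under cyproheptadine, 58.1% under loxapine, 55.8% under DKI and 58.6% under meclizine, and 53.5% were marked in all 6. Presence therefore did not separate the conditions for these genes. What varied was peak strength, peak width and the position of peaks relative to the start. The most distant peak inside the 1 kb window lay 840 bp from a start (Ezh2 with loxapine) and the nearest one outside it 2537 bp away (Ring1 with loxapine), and a 5 kb window changed several of the differences given below.

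The promoters themselves are shown first, because for several of these genes the peaks lay beside the start and not over it. RefSeq promoter windows on GRCm38.p6, 250 bases before to 50 bases after the reference start, matched 9 of the 10 genes by symbol, and Cbx2 did not match. The sequences below run 5′ to 3′ on the gene's strand, with CpG dinucleotides in capitals. Suz12 lies at chr11:79992856-79993155 (plus strand), Rnf2 at chr1:151500942-151501241 (minus strand), Ezh2 at chr6:47594981-47595280 (minus strand), Eed at chr7:89980927-89981226 (minus strand) and Bmi1 at chr2:18676768-18677067 (plus strand). In these 5 genes the window was partly or wholly outside peaks in some or all lists. Cbx8 at chr11:119040864-119041163 (minus strand) is given for contrast, since its window was covered in full in all 6 lists.
Suz12: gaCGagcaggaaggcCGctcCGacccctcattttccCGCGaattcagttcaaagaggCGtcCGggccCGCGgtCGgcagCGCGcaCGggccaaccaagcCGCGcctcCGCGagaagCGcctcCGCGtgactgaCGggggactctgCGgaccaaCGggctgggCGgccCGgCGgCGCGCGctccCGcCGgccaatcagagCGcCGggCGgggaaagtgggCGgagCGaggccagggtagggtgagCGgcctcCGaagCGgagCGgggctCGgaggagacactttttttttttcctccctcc
Rnf2: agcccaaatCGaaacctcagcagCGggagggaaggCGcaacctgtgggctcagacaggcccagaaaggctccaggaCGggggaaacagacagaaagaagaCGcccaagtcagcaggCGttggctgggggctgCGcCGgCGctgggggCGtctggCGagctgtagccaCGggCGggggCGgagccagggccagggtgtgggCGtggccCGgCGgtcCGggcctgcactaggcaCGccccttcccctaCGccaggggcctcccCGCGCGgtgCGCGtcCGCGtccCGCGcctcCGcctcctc
Ezh2: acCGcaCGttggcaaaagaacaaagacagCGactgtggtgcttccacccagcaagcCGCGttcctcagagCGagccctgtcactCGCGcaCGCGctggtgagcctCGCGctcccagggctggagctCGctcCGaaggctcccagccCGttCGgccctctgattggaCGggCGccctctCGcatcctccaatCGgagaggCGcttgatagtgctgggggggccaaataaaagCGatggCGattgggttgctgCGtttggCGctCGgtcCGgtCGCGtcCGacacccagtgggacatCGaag
Eed: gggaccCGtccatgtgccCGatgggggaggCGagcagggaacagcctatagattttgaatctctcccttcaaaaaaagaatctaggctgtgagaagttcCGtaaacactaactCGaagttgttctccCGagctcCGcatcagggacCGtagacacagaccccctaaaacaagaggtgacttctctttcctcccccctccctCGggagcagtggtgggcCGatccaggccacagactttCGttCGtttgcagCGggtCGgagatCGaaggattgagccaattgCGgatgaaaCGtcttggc
Bmi1: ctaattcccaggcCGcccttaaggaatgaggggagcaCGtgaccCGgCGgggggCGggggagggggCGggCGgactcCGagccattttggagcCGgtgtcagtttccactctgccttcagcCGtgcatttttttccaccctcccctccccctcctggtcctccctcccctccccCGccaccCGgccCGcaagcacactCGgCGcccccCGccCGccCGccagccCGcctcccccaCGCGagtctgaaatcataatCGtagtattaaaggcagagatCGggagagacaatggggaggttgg
Cbx8: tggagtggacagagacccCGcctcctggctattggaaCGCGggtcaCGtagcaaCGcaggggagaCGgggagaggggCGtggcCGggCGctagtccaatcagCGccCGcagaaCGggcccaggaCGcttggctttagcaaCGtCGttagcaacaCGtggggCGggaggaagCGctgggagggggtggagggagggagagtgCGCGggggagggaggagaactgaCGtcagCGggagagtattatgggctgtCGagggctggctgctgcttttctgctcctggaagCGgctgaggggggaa

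CpG content did not follow peak strength gene by gene in these windows. The Suz12 window held 41 CpGs, the Rnf2 window 30 and the Eed window 17, and these genes had the 3 highest median strengths of the set. Ring1, the weakest by median, held 37 CpGs. The other windows held 33 (Cbx7), 31 (Ezh2), 24 (Cbx8), 23 (Ezh1) and 23 (Bmi1). The median over 32851 RefSeq promoters was 7, so all 9 windows were CpG-rich.

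Short motifs were searched in the windows on both strands, with overlaps between motifs allowed. The GC box GGGCGG occurred in 6 of 9 (Suz12, Bmi1, Ring1, Rnf2, Cbx7 and Cbx8), against 35.7% of all promoters. The CCAAT box CCAAT occurred in 5 of 9 (Ezh2, Eed, Suz12, Cbx7 and Cbx8), against 37.4%. The E2F-type site TTTGGCGC occurred in Ezh2 (0.514% of promoters) and TTTCCCGC in Suz12 (1.07%), and the cyclic AMP response element TGACGTCA in Cbx8 (1.79%). No window held TATAAA (13.6% of promoters) or the palindromic NRF1 site (0.971%). A match is a match of letters only.

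**Figure D1:**
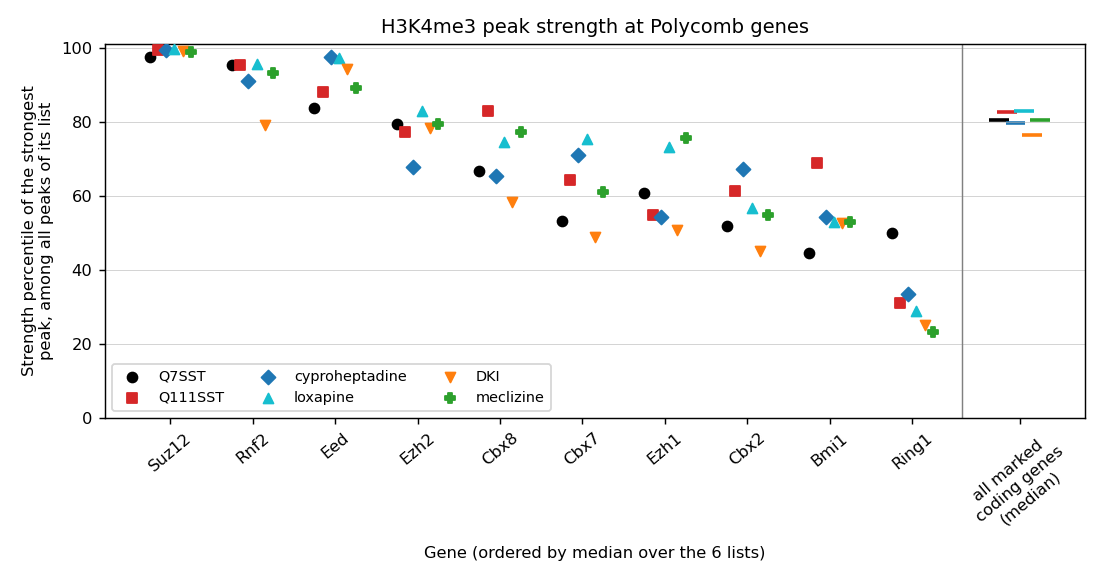
Strength percentile of the strongest H3K4me3 peak near a start (vertical axis, percentile among all peaks of the same list) for the 10 Polycomb genes (horizontal axis), with 1 point per peak list, and the median of all marked protein-coding genes as bars on the right. Suz12 lay at 97.5 or above in all 6 lists and Ring1 at 50.0 or below. Ring1, Bmi1, Cbx2, Ezh1 and Cbx7 lay under the bars in all 6.

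The 10 genes spanned strength percentiles from 23.3 (Ring1 with meclizine) to 99.7 (Suz12 with loxapine). Ordered by the median percentile over the 6 lists, they ran Suz12 (99.2), Rnf2 (94.2), Eed (91.7), Ezh2 (78.8), Cbx8 (70.6), Cbx7 (62.6), Ezh1 (57.8), Cbx2 (55.8), Bmi1 (52.8) and Ring1 (29.9). The ranges over lists of Rnf2 (79.2 to 95.7) and Eed (83.8 to 97.6) overlapped, and so did those of all neighbours from Ezh2 down to Ring1, while Eed lay wholly above Ezh2 (67.8 to 83.0). Suz12 (97.5 to 99.7) lay wholly above Rnf2. The median of the 10 genes was below that of marked protein-coding genes in each list, with 63.8 against 80.4 in Q7SST, 73.1 against 82.6 in Q111SST, 67.4 against 79.5 under cyproheptadine, 74.8 against 83.0 under loxapine, 55.4 against 76.3 under DKI and 76.3 against 80.3 under meclizine. In each list 3 or 4 of the 10 genes lay above that median.

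**Figure D2:**
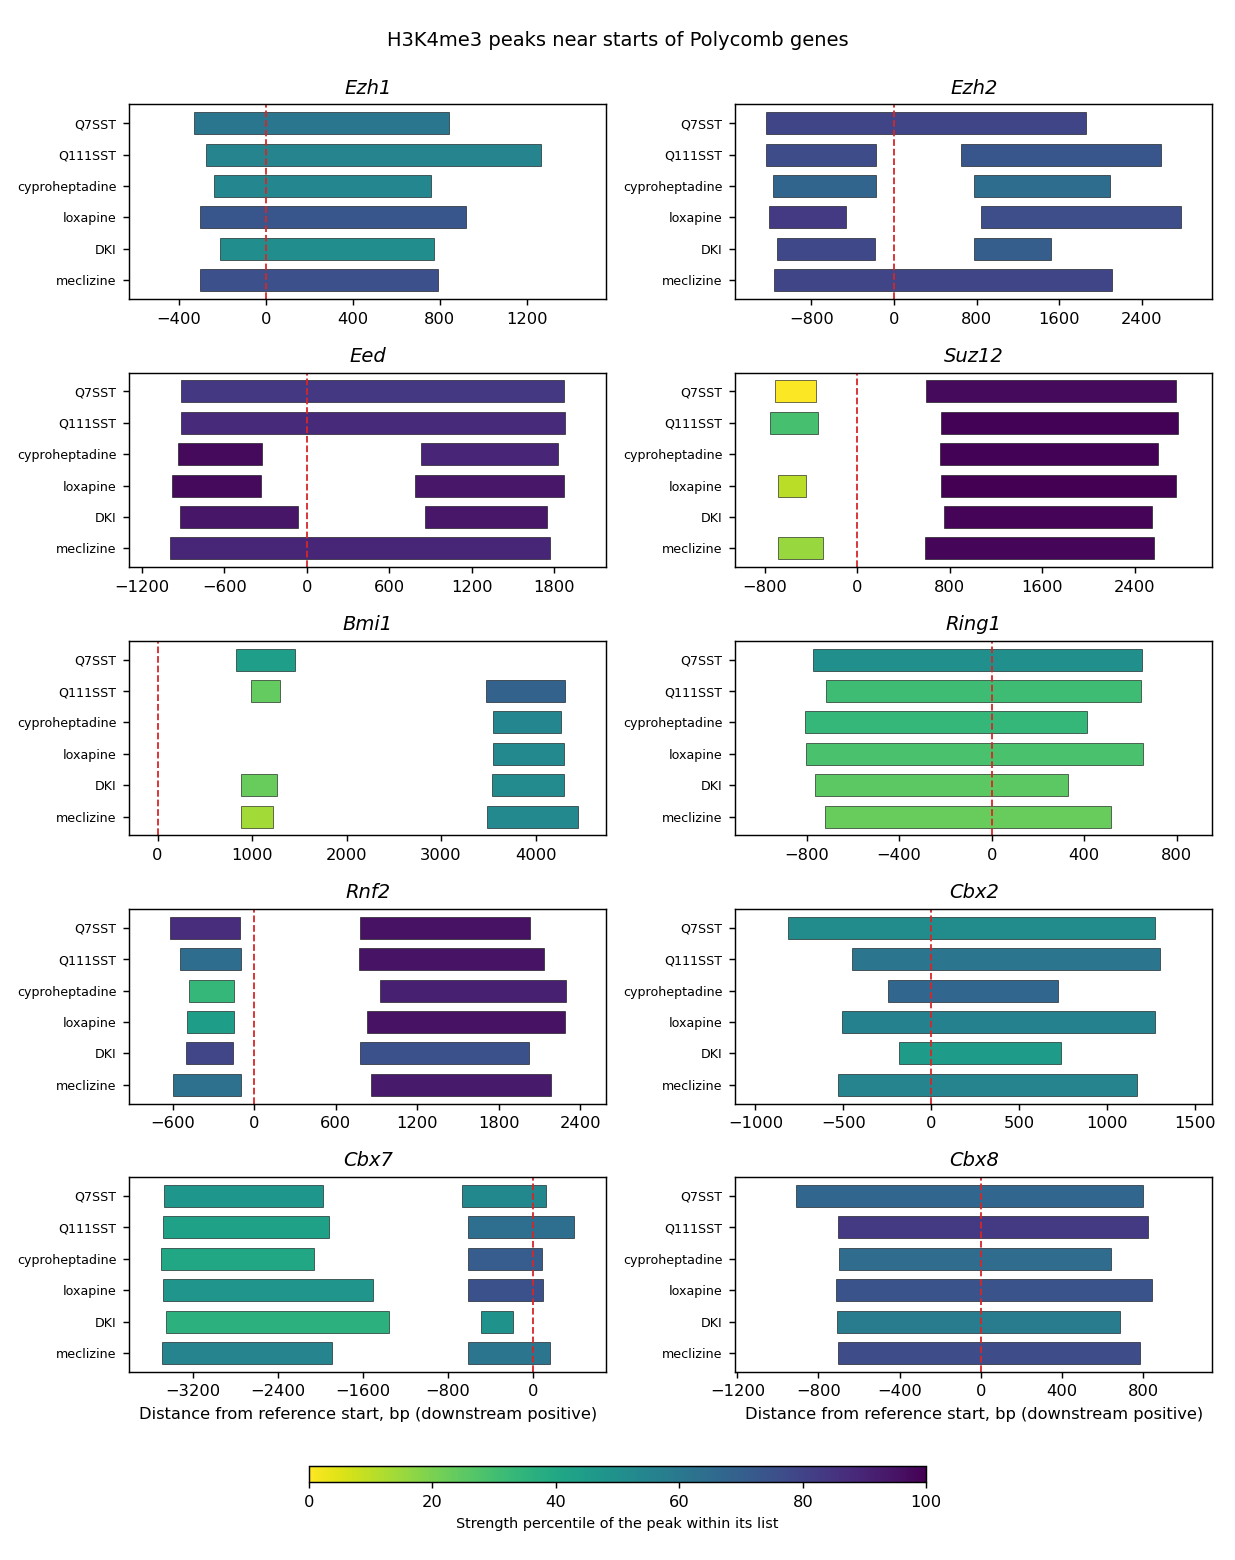
H3K4me3 peaks within 1 kb of any annotated start of each Polycomb gene, drawn by distance from the reference start in bp (dashed line, downstream positive), with 1 row per peak list and colour for strength percentile. Rnf2, Suz12 and Bmi1 had no peak over the reference start in any list, Ezh2 and Eed had 1 long peak in some lists and 2 peaks beside the start in others, and the Bmi1 peak farther downstream, beginning 3472 bp from the reference start in Q111SST, was missing from Q7SST.

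Among the PRC2 subunits, Suz12, a scaffold that the enzyme needs for activity, carried the strongest peak of the set. Its strength percentile was 97.5 in Q7SST, 99.3 in Q111SST, 99.3 under cyproheptadine, 99.7 under loxapine, 99.2 under DKI and 98.8 under meclizine. The 6 lists were within 2.2 points of each other. This peak did not cover the reference start. It began 582 to 751 bp downstream of it in the 6 lists and was 1800 to 2168 bp wide, at chr11:79993826-79995880 in Q111SST, mostly over intron sequence. A second, weak peak 238 to 420 bp wide lay upstream of the start in Q7SST (percentile 0.6), Q111SST (29.3), loxapine (10.4) and meclizine (15.6), and it was not listed with cyproheptadine or DKI. The 300-base Suz12 window printed above thus lay outside peaks in all 6 lists.

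Eed, which binds the methylated histone tail and stimulates the enzyme, changed in peak shape. Its strength percentile was 83.8 in Q7SST, 88.1 in Q111SST, 97.6 under cyproheptadine, 97.3 under loxapine, 94.2 under DKI and 89.2 under meclizine. Cyproheptadine, loxapine and DKI stood highest. In Q7SST, Q111SST and meclizine a single peak of 2790, 2795 and 2763 bp ran across the start (chr7:89979099-89981893 in Q111SST). With cyproheptadine, loxapine and DKI the same stretch held 2 peaks, and the gap between them measured 1153, 1123 and 924 bp and contained 5 of the 10 Eed starts. The strongest peak was then 608, 646 and 854 bp wide, which is 4.60-, 4.33- and 3.27-fold narrower than in Q111SST. The outer edges moved little, with a span of 2662 to 2851 bp over the 6 lists. The noncoding gene E230029C05Rik starts 221 bp away on the opposite strand, and the data carry no strand, so the peak cannot be assigned to one of the 2 genes.

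Ezh2, the main PRC2 methyltransferase of dividing cells, was marked at intermediate strength. Its percentile was 79.4 in Q7SST, 77.3 in Q111SST, 67.8 under cyproheptadine, 83.0 under loxapine, 78.2 under DKI and 79.5 under meclizine. Cyproheptadine was lowest and loxapine highest. A single peak of 3092 bp in Q7SST (chr6:47593174-47596265) and 3265 bp with meclizine covered the start. In Q111SST, cyproheptadine, loxapine and DKI there were 2 peaks with a gap of 827, 955, 1308 and 957 bp, and 2 or 3 of the 12 Ezh2 starts lay in it. The width of the strongest peak was accordingly 2.93-fold greater in Q7SST and 3.09-fold greater with meclizine than in Q111SST. When peaks within 1 kb of each other were merged, these ratios turned to 0.810 and 0.855, since the unsplit peak had been set against the stronger of 2 peaks.

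Ezh1, the methyltransferase typical of non-dividing cells, had 1 peak over its reference start in all 6 lists. Its percentile was 60.8 in Q7SST, 54.7 in Q111SST, 54.2 under cyproheptadine, 73.1 under loxapine, 50.8 under DKI and 75.5 under meclizine. Loxapine and meclizine thus stood apart from the other lists, 18.4 and 20.8 points above Q111SST. Among the differences of all protein-coding genes in these comparisons, these values ranked at percentiles 98.1 and 98.8. The widths did not rise with strength, at 1225 bp with loxapine and 1093 bp with meclizine against 1538 bp in Q111SST (chr11:101225199-101226736). The peak was also narrower with cyproheptadine (993 bp, 1.55-fold) and DKI (983 bp, 1.56-fold). By base pairs covered by any peak within 5 kb of the starts, Ezh1 stood at 0.377 (DKI) to 0.592 (loxapine) of Q111SST in the other 5 lists. Of the 2604 bp covered in Q111SST, 853 bp were a weak peak (percentile 22.4) past the far end of the gene. It lay 3825 bp from the nearest start and was listed only in Q111SST. The peak over the start alone stood at 0.639 (DKI) to 0.796 (loxapine) of its Q111SST width.

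Among the PRC1 subunits, Rnf2, the main histone H2A ubiquitin ligase, like Suz12, had no peak over its reference start. A peak lay 774 to 930 bp downstream and a shorter peak just upstream in all 6 lists, and the gap of 870 to 1074 bp between them held 4 of the 7 Rnf2 starts in all 6 lists. The percentile of the strongest peak was 95.4 in Q7SST, 95.2 in Q111SST, 91.1 under cyproheptadine, 95.7 under loxapine, 79.2 under DKI and 93.2 under meclizine. DKI was the lowest. In that list the downstream peak stood at 75.3 and the upstream peak, 352 bp wide, was the stronger of the pair. The upstream peak itself ranged widely, from 33.5 under cyproheptadine and 44.7 under loxapine to 63.1 under meclizine, 64.6 in Q111SST, 79.2 under DKI and 87.3 in Q7SST.

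Ring1, the second ligase of the family, had the lowest median strength of the set. Its percentile was 50.0 in Q7SST, 30.9 in Q111SST, 33.5 under cyproheptadine, 28.9 under loxapine, 25.0 under DKI and 23.3 under meclizine. Q7SST lay above all 5 STHdhQ111 lists, and its difference from Q111SST of 19.1 points ranked at percentile 96.2 among those of all protein-coding genes. It was 28.4 points in lists of equal size (the strongest 30758 peaks of each) and 7.2 as a percentile among marked protein-coding genes only. In scores this was 50 in Q7SST against 25 to 28 in the STHdhQ111 lists. Peak widths were alike, 1421 bp in Q7SST and 1362 bp in Q111SST (chr17:34024037-34025398), and the peak covered the start throughout. The microRNA genes Mir219a-1 and Mir219c and the noncoding gene Gm26940 start within 1 kb of a Ring1 start, and the lists do not assign the peak to one gene. A separate upstream peak, 802 bp wide and 2559 bp from the nearest start in Q111SST, was not listed with cyproheptadine or meclizine. With DKI a peak there measured 208 bp.

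Bmi1, the partner that stimulates the ligases and represses Cdkn2a, lacked in Q7SST a peak that all 5 STHdhQ111 lists held. No list had a peak over the 300-base Bmi1 window printed above. In all 5 STHdhQ111 lists the strongest peak lay over 2 internal starts, 3472 to 3550 bp downstream of the reference start (chr2:18680490-18681330 in Q111SST). Q7SST had no peak there. Its only peak near a Bmi1 start lay 829 bp downstream of the reference start (chr2:18677847-18678468, intron, score 44), and Q111SST, DKI and meclizine had a weaker peak at the same place (scores 23, 24 and 22).

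The internal Bmi1 peak was stronger in Q111SST than in any compound list. The percentile of the strongest peak was 44.4 in Q7SST, 68.9 in Q111SST, 54.2 under cyproheptadine, 52.8 under loxapine, 52.6 under DKI and 52.9 under meclizine. The differences from Q111SST were -14.7 (cyproheptadine), -16.1 (loxapine), -16.3 (DKI) and -16.0 (meclizine) points. In lists of equal size they spread to -9.3, -29.1, -6.6 and -18.2 points in the same order. All 4 comparisons share the Q111SST list, so a high value in that list alone would lower all of them. With a window of 5 kb a stronger peak upstream of the gene entered, and the differences were between -7.7 (DKI) and -0.8 (cyproheptadine) points.

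The Cbx proteins bind the methylated histone through a chromodomain. Cbx8 had 1 peak over its start in all 6 lists, 1342 to 1711 bp wide (chr11:119040089-119041618 in Q111SST). Its percentile was 66.8 in Q7SST, 82.9 in Q111SST, 65.2 under cyproheptadine, 74.4 under loxapine, 58.3 under DKI and 77.2 under meclizine. Like Bmi1, it was highest in Q111SST, with differences of -5.7 (meclizine) to -24.6 (DKI) points in the other lists. The width ratios to Q111SST lay between 0.877 and 1.12, within the 1.5-fold limit, and DKI and cyproheptadine, the lowest in strength, were also the narrowest.

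Cbx2 had 1 peak over its reference start in each list. Its percentile was 51.7 in Q7SST, 61.3 in Q111SST, 67.1 under cyproheptadine, 56.6 under loxapine, 45.1 under DKI and 54.9 under meclizine. Its width separated the lists more clearly. The peak was 965 bp wide with cyproheptadine and 917 bp with DKI, and 1701 to 2085 bp in the other 4 lists (chr11:119022513-119024260 in Q111SST). Cyproheptadine and DKI gave the 2 shortest lists, with median widths over marked protein-coding genes of 1546 and 1461 bp against 1795 bp in Q111SST, and the part of list size in the Cbx2 widths was not tested.

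Cbx7 had 2 peaks near its starts in all 6 lists. The peak at the reference start had a percentile of 53.2 in Q7SST, 64.2 in Q111SST, 70.9 under cyproheptadine, 75.2 under loxapine, 48.9 under DKI and 61.0 under meclizine. It covered the start except with DKI, where it measured 298 bp against 999 bp in Q111SST (chr15:79932253-79933251). That ratio of 0.298 became 0.913 by base pairs covered within 5 kb of the starts and turned to 3.264 after merging of peaks within 1 kb. The second peak, 1445 to 2094 bp wide, lay over intron sequence upstream of the reference start. Away from all starts, another peak inside the gene (chr15:79927416-79928280 in Q111SST) had a percentile of 87.8 in Q7SST, 87.0 in Q111SST, 70.9 under cyproheptadine, 85.8 under loxapine, 82.2 under DKI and 71.0 under meclizine. It was at least as strong as the peak at the reference start in each list, and a window of 5 kb, which takes it in, turned the direction of the Cbx7 difference from Q111SST for Q7SST, cyproheptadine and loxapine.

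Starts lying in a gap between 2 peaks recurred across the set. This measure was chosen after the values were seen. A gene was counted when a start had no peak over it and a peak on each side within 1 kb. The count was 3 of 10 in Q7SST (5.48% of marked protein-coding genes), 4 in Q111SST (5.72%), 4 under cyproheptadine (8.43%), 5 under loxapine (8.37%), 4 under DKI (7.57%) and 3 under meclizine (4.58%). Rnf2 and Cbx7 had such a start in all 6 lists, Suz12 and Ezh2 in 4, and Eed in 3. Any 1 start was enough, so a gene with more annotated starts had more chances to be counted. These genes had 5 (Suz12) to 12 (Ezh2) starts, and the protein-coding genes were not matched for that number. Of 67 annotated starts of the 10 genes, 38 to 42 lay within 1 kb of a peak, while 15 (DKI) to 28 (meclizine) lay under one. The chromatin was cut with micrococcal nuclease, and how that digestion bears on these gaps was not tested.

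**Figure D3:**
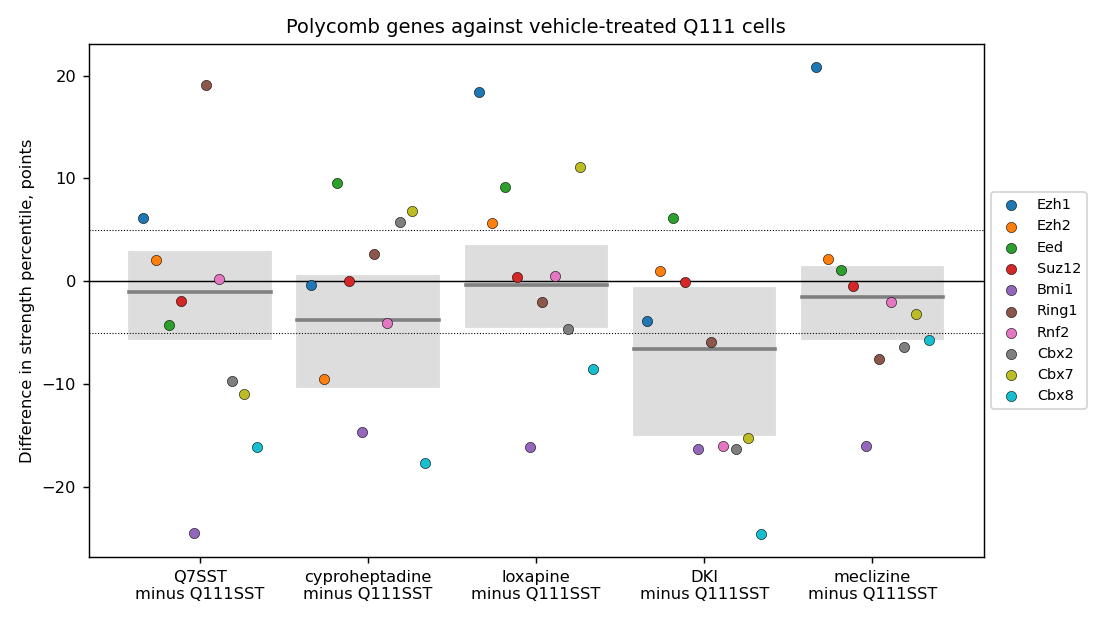
Difference in strength percentile from Q111SST in points (vertical axis) for the 10 Polycomb genes (coloured points) in the other 5 lists (horizontal axis), over all protein-coding genes marked in both lists (grey box from the lower to the upper quartile, median as a grey line) and with dotted lines at 5 points. Bmi1 and Cbx8 lay below the grey box in all 5 comparisons, and Ezh1 lay far above it with loxapine and meclizine.

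Against Q111SST, a difference of 5 percentile points or more was counted as higher or lower, and a width ratio of 1.5-fold or more as wider or narrower. Under base pairs covered, the same limit was set on all peaks within 5 kb of the starts. A separate peak missing from 1 list could then count as narrower. After merging, the limit was set on the joined peak, so a gap just under or over 1 kb could change the call. In Q7SST, Ezh1 and Ring1 were higher (2 of 10, with 17.8% of protein-coding genes higher) and Bmi1, Cbx2, Cbx7 and Cbx8 lower (4 of 10, 27.4%). The Bmi1 call set peaks at 2 different places against each other. At the place of the Q7SST peak (44.4), the Q111SST peak was the weaker (24.2). Ezh2 was wider (1 of 10, 5.82%) and none was narrower (6.89%). After merging of peaks within 1 kb, Suz12 counted as wider (1.688) in place of Ezh2 (5.64%). Its 2 peaks were merged in Q7SST, with a gap of 951 bp, but not in Q111SST, with a gap of 1058 bp. From end to end they spanned 3469 bp in Q7SST and 3533 bp in Q111SST. By base pairs covered within 5 kb of the starts, Ezh2 stood at 1.033 and Ezh1 was narrower, at 0.45 (6.64%). As a percentile among marked protein-coding genes only, Ezh2 also counted as higher (10.1 points, 35.1%) and Eed as lower (-6.8, 29.2%), while Cbx2 (-3.4) and, narrowly, Cbx7 (-5.0) came within the limit. The Cbx genes differed by -9.7 (Cbx2), -11.0 (Cbx7, 0.8 with a 5 kb window) and -16.1 (Cbx8) points.

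With cyproheptadine, Eed, Cbx2 and Cbx7 were higher (3 of 10, against 9.68%) and Ezh2, Bmi1 and Cbx8 lower (3 of 10, against 44.1%). Ezh1, Eed and Cbx2 were narrower (3 of 10, 16.0%) and none wider (0.978%). Merging added Rnf2 to the narrower calls (0.508, 14.1%), where a gap of 1074 bp kept its 2 peaks apart. Base pairs covered added Ring1 (0.565, 16.4%), whose separate upstream peak was not listed with cyproheptadine. The Ring1 peak over its start stood at 0.897 of Q111SST in width. The median difference of the 10 genes was -0.22 points, against -3.74 for protein-coding genes. With lists of equal size it turned to 4.76. In those lists 5 of 10 were higher (21.5%), with Ring1 (17.9 points) and Ezh1 (9.4) added, and the same 3 were lower (as were 3819 of 11921 protein-coding genes). With a 5 kb window Cbx7 turned to -16.1 points and Bmi1 (-0.8) came within the limit, and among marked genes Rnf2 (-8.7) was lower too.

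With loxapine, Ezh1, Ezh2, Eed and Cbx7 were higher (4 of 10, 18.6%) and Bmi1 and Cbx8 lower (2 of 10, 22.4%). Eed was narrower (1 of 10, 8.51%) and none wider (2.52%), whereas after merging Eed and Ezh2 (0.194) were narrower (6.98%) and Cbx7 wider (3.583, 2.52%). By base pairs covered, Ezh1 (0.592) was narrower beside Eed (4.91%). In lists of equal size Ezh2 came within the limit (4.7 points) and Cbx2 was lower (-13.5, 38.8%). With a 5 kb window Bmi1 (-2.1) and Cbx7 (-1.3) came within the limit. The median difference was 0.47 points against -0.35 for protein-coding genes, and -0.44 with a 5 kb window.

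With DKI, Eed alone was higher (1 of 10, 8.49%) and Bmi1, Ring1, Rnf2, Cbx2, Cbx7 and Cbx8 lower (6 of 10, 55.9%). The share lower was close to that of all protein-coding genes. Ezh1, Eed, Rnf2, Cbx2 and Cbx7 were narrower (5 of 10, 18.7%) and none wider (1.32%). After merging of peaks within 1 kb, 2 of 10 were narrower (Ezh1 and Cbx2) and Cbx7 was wider (3.264), while Eed (0.952) and Rnf2 (0.943) were within the limit (16.6% narrower, 1.27% wider). By base pairs covered 5 of 10 were again narrower (20.7%), with Ezh2 (0.566) and Ring1 (0.602) in place of Rnf2 and Cbx7. The Ring1 peak over its start stood at 0.803 of Q111SST in width. The median difference was -10.59 points against -6.57 for protein-coding genes. It shrank to -1.97 with lists of equal size, where Cbx2 (-4.1) and Cbx7 (-4.0) came within the limit and Bmi1 (-6.6), Rnf2 (-14.5) and Cbx8 (-19.2) were lower (3 of 10, 37.5%). In those lists 4 of 10 were higher (21.9%), namely Eed (9.8), Ring1 (15.8), Ezh1 (10.3) and Ezh2 (8.1). Among marked genes Eed (22.5), Ezh2 (16.1) and Ezh1 (5.0) were higher (27.9%). There Ring1 (-0.2), Cbx2 (-3.3) and Cbx7 (-3.2) came within the limit, which left 3 of 10 lower (42.1%). With a 5 kb window Cbx7 (-4.9) came within it and Ring1 (12.1) was higher. Several DKI calls thus depended on how the lists were scaled.

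With meclizine, Ezh1 was higher (1 of 10, 10.6%) and Bmi1, Ring1, Cbx2 and Cbx8 lower (4 of 10, 27.8%). Ezh2 was wider (1 of 10, 3.78%) and none narrower (4.63%). After merging, Suz12 counted as wider (1.585, 3.02%) and Ezh2 did not (0.855). The gap between the 2 Suz12 peaks was 878 bp with meclizine, and so merged, against 1058 bp in Q111SST. By base pairs covered, Ezh2 stood at 1.091, and Ezh1 (0.489) and Ring1 (0.572) were past the limit on the narrower side (3.93%). The Ring1 peak over its start stood at 0.909 of Q111SST in width, and its separate upstream peak was not listed with meclizine. Among marked genes Ring1 (-1.1) and Cbx2 (-1.8) came within the limit of 5 points, and Ezh2 (10.3) and Eed (6.8) counted as higher (26.6%). With a 5 kb window Bmi1 (-2.8) came within it and Cbx7 (-16.0) was lower. The median difference was -2.59 points against -1.54 for protein-coding genes.

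All 4 compounds share the Q111SST list. The total length covered by peaks within 5 kb of the starts of the 10 genes was 25014 bp in Q111SST, 22958 bp in Q7SST, 22383 bp with meclizine, 22051 bp with loxapine, 17840 bp with cyproheptadine and 17276 bp with DKI. That order placed the 2 shortest lists lowest.

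Other subunits of the Polycomb complexes were as widely marked. All 24 accessory and variant subunits had a peak in each of the 6 lists, with a median percentile of 80.2 in Q7SST, 86.5 in Q111SST, 78.8 under cyproheptadine, 86.2 under loxapine, 77.5 under DKI and 78.7 under meclizine. The strongest by median was L3mbtl2, a subunit of a variant PRC1, at 98.9 in Q111SST and 90.5 to 99.5 over the lists, although Yaf2 stood higher under DKI (97.6) and level under loxapine (98.4). The weakest by median was Bcor, a corepressor of another variant PRC1, at 16.9 in Q7SST, 60.8 in Q111SST, 40.6 under cyproheptadine, 38.3 under loxapine, 26.6 under DKI and 53.5 under meclizine. Bcor was thus highest in Q111SST. Its median of 39.4 was close to that of Pcgf2 (39.7), which stood lower in Q111SST (44.1), under cyproheptadine (36.5) and under meclizine (32.6). Against Q111SST in Q7SST, 2 of the 24 were higher (17.8% of protein-coding genes) and 11 lower (27.4%). Under cyproheptadine 1 was higher (9.68%) and 15 lower (44.1%), and under loxapine 2 were higher (18.6%) and 7 lower (22.4%). Under DKI none was higher (8.49%) and 17 were lower (55.9%), and under meclizine none was higher (10.6%) and 8 were lower (27.8%).

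**Figure D4:**
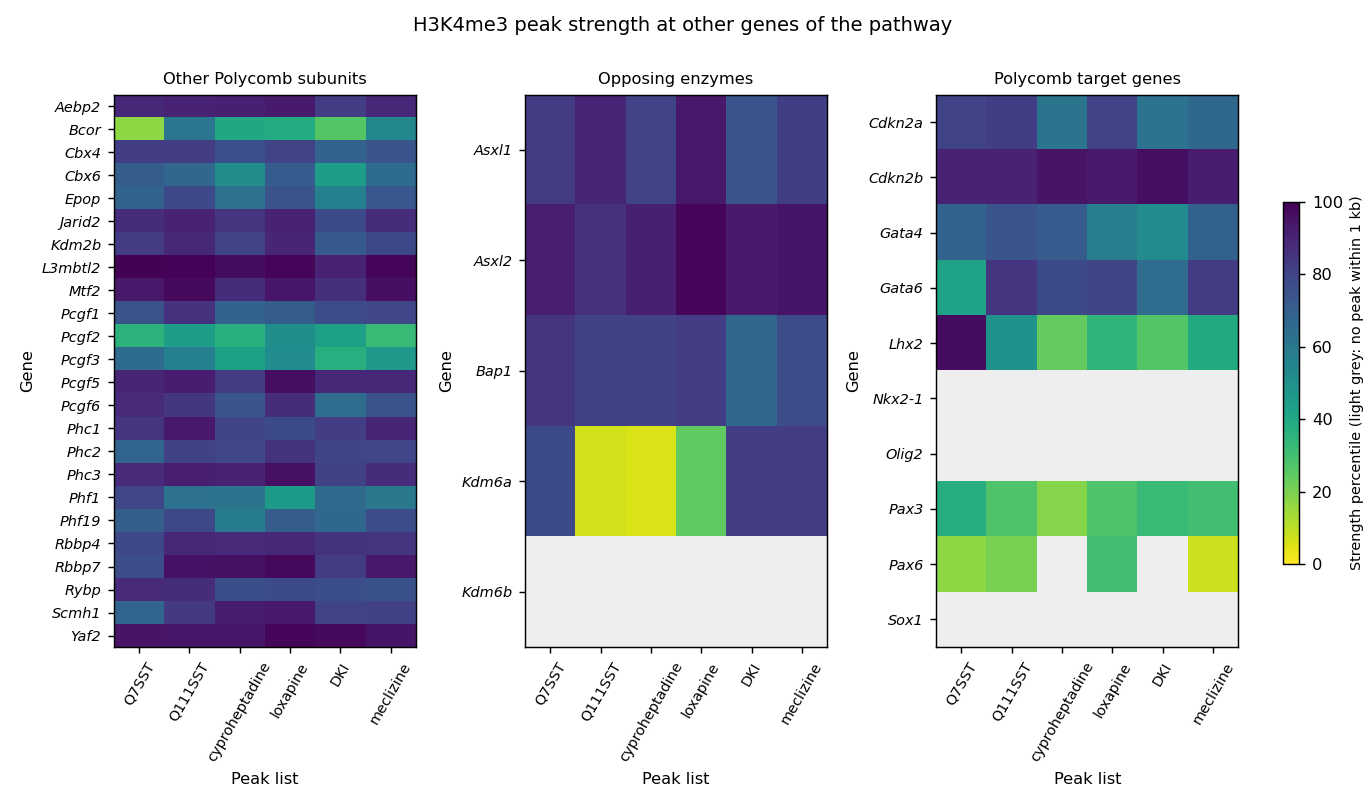
Strength percentile (colour) of other Polycomb subunits, enzymes that remove Polycomb marks and their partners, and well known Polycomb target genes (rows) in the 6 peak lists (columns), with light grey where no peak lay within 1 kb of a start. All 24 other subunits were marked in every list, Kdm6b and 3 target genes in none, and Kdm6a changed from dark to light between lists.

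Among the enzymes and partners that oppose Polycomb, 4 of 5 were marked in each list. Kdm6b, a demethylase of lysine 27, was unmarked in all 6 lists. The strongest by median was Asxl2, a partner of the H2A deubiquitinase Bap1, at 85.9 to 98.2, although Asxl1 stood higher in Q111SST (89.8 against 85.9). The weakest by median was Kdm6a, the other lysine 27 demethylase, at 77.6 in Q7SST, 6.8 in Q111SST, 5.8 under cyproheptadine, 24.3 under loxapine, 81.8 under DKI and 81.9 under meclizine. The lists fell into 2 sets for this gene, high in Q7SST, DKI and meclizine and low in Q111SST, cyproheptadine and loxapine. Kdm6a was not the weakest under DKI and meclizine, where Bap1 stood at 66.8 and 77.2.

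Of 10 well known Polycomb target genes, 7 were marked in Q7SST, Q111SST, loxapine and meclizine and 6 under cyproheptadine and DKI. Olig2, Sox1 and Nkx2-1, transcription factors of neural lineages, were unmarked in all 6 lists. Pax6, another such factor, was unmarked with cyproheptadine and DKI and at 7.5 to 30.3 elsewhere. Cdkn2b, a cell cycle inhibitor beside Cdkn2a, was the strongest by median at 90.0 to 96.2, and Pax3 the weakest by median of those marked in all lists at 18.3 to 37.8. Neither held in each list, since Lhx2, a further transcription factor, stood at 96.7 in Q7SST against 49.1 in Q111SST and at 26.6 under DKI, where Pax3 was at 32.2. Lhx2 was named after its values were seen. Against Q111SST in Q7SST, 2 of the 7 targets marked in both lists were higher (17.8% of protein-coding genes) and 2 lower (27.4%). Under cyproheptadine 0 of 6 were higher (9.68%) and 4 lower (44.1%), and under loxapine 1 of 7 was higher (18.6%) and 3 lower (22.4%). Under DKI 1 of 6 was higher (8.49%) and 4 lower (55.9%), and under meclizine 0 of 7 were higher (10.6%) and 3 lower (27.8%).

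Among the 10 genes and the 24 accessory subunits only, the genes closest in level were found by the mean absolute difference in percentile over the 6 lists. This measure does not show whether 2 genes vary together over the lists. For Suz12 these were L3mbtl2 (2.5 points) and Yaf2 (3.5), for Rnf2 Phc3 (3.2) and Mtf2 (3.4), and for Eed Yaf2 (5.0) and Aebp2 (5.2). Ezh2 was nearest to Pcgf1 (4.8) and Phc2 (5.0), and Ezh1 to Cbx6 (7.6) and Epop (8.1). Cbx8 was nearest to Epop (2.5) and Phf19 (4.6). Cbx2 and Cbx7 were each other's nearest (6.1), followed by Bmi1 for Cbx2 (6.8) and Ezh1 for Cbx7 (8.7), and Bmi1 was nearest to Cbx2 (6.8) and Cbx7 (10.7). Ring1 was nearest to Pcgf2 (13.3) and Pcgf3 (18.0).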

How the data were processed

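H3K4me3 ChIP-Seq peak lists were analysed, 1 per condition. Per the labels, single-end reads of 50 bp were processed with Trimmomatic 0.36, Bowtie2, SAMtools 1.3 and MACS2 on mm10, with roles and settings not given. The deposited files give each peak's position and a whole-number score from the authors, of unknown scale. Cells were treated in triplicate, and whether replicates were pooled is not stated. Peak ends exceeded no chromosome end of GRCm38 (0 of 21).

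GENCODE vM21 starts, and the RefSeq promoter table for reference starts and sequences (for Cbx2, its most upstream GENCODE start), were joined to peaks with Python 3.11.15, numpy 2.4.6 and pandas 2.3.3. Ties in rank were halved. The steps were tested on simulated lists. The genes, lists, limits and alternatives were chosen with earlier results of these data known. Named genes were the 10 members and, of 39 genes in the other lists, those unmarked in some list, each list's strongest and weakest by median, and the 2 members or accessory genes closest in percentile to each member.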

Additional observations from a re-analysis of the deposited data

How the results depend on the processing

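No paired analysis was possible because no condition had more than 1 list. The counts of marked genes stayed within 1.5 times of the reported ones under each alternative tried, with 7 to 9 of the 10 genes under a peak at a start itself and 7 to 9 at scores of 47 or more. Loxapine kept 9 of 10 in lists of equal size, without Ring1. The median strength difference from Q111SST moved, in points, as follows. In Q7SST it was -3.84 as a percentile among marked protein-coding genes and -0.83 with a 5 kb window. With cyproheptadine it was 4.76 in lists of equal size and 0.41 among marked genes, and with loxapine -0.44 at 5 kb. With DKI it was -1.97 in lists of equal size, -1.70 among marked genes and -4.38 at 5 kb, and with meclizine -2.04 in lists of equal size and -1.0 among marked genes. The median width ratio, as base pairs covered within 5 kb and after merging peaks within 1 kb, was 0.995 and 0.993 in Q7SST, 0.762 and 0.773 with cyproheptadine, 0.930 and 1.003 with loxapine, and 0.663 and 0.893 with DKI. For single genes, Cbx7 strength turned at 5 kb to 0.8 (Q7SST), -16.1 (cyproheptadine) and -1.3 (loxapine), and Ring1 with DKI to 15.8 in lists of equal size and 12.1 at 5 kb. Merging turned the width ratio of Ezh2 to 0.810 (Q7SST) and 0.855 (meclizine) and that of Cbx7 with DKI to 3.264. It also gave 3.583 for Cbx7 with loxapine, 1.688 and 1.585 for Suz12 in Q7SST and with meclizine, 0.508 for Rnf2 with cyproheptadine, 0.194 for Ezh2 with loxapine, and 0.952 for Eed and 0.943 for Rnf2 with DKI. Of 30 strength differences of 5 points or more, 26 stayed past that limit on the same side in lists of equal size, 23 among marked genes and 22 at 5 kb, and 6, 7 and 3 came past it anew or on the other side. Of 11 width calls, 7 stayed by base pairs covered and 6 after merging, and 7 and 6 were gained, anew or on the other side. The cause of these shifts was not tested. With 1 list per condition of unknown depth, none of the differences has an error.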
